A study of Mus musculus with 6 samples.

Results

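Replication-dependent histone genes of the H3 and H4 families were followed in the injured retina of WT and Slc6a4-/- mice. The genes are 5 H4 genes (H4c8, Hist1h4m, H4c2, H4c11 and H4c1) and 4 H3 genes (H3c6, H3c4, H3c1 and H3c7), and they are 9 of the 701 genes in the deposited table. That table holds only genes the authors had selected on a p-value for WT against Slc6a4-/-, and the 9 genes were chosen from the clustered H3 and H4 genes with that same contrast in view. Their differences between genotypes are therefore given as a description, without a test. WT mice were C57BL/6J by the study's methods (the labels give C57BL/6 for all samples), and the mutants lack Slc6a4, which encodes the serotonin transporter SERT, in every cell of the body and throughout life. All mice had an optic nerve crush of the left eye at 8 weeks of age (postnatal day 56), and the peripheral ventrotemporal (VT) part of the injured retina was taken 24 hours later. There was no uncrushed group in this experiment, so the values compare genotypes after injury only. Each of the 3 samples of a genotype was made from VT retinae pooled from 3 mice, and no source used here says which pools share a litter or day.

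Histone H3 and H4 proteins form the tetramer at the core of the nucleosome. Replication-dependent copies are encoded by many near-identical, intronless genes in clusters, and are transcribed mainly in S phase, when new DNA needs new nucleosomes. Their mRNAs end in a stem-loop that is bound by the protein SLBP in place of a poly(A) tail, so a library made from total RNA with ribosomal RNA reduced, as here, can capture them without poly(A) selection. The adult mouse retina holds few dividing cells.

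The stem-loop is the feature these mRNAs share, and it is shown for that reason. It does not tell all copies apart, since H3c6 and H3c7 have the same 26 bases there. It was found in all 9 members, 29 to 37 bases after the stop codon, as a stem of 6 base pairs with a loop of 4 bases. The annotated transcripts run on past the stem-loop, by 3 bases in Hist1h4m, 385 in H4c11 and 752 in H3c4. Reads from RNA that does not end at the stem-loop were not separated from the rest. The 9 genes held 5 distinct stem-loops, and no stem-loop was shared between an H3 and an H4 gene. Each is printed 5′ to 3′ from the GENCODE M21 transcript (GRCm38), with the stem and loop in capitals.
H4c8: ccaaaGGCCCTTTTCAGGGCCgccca
Hist1h4m: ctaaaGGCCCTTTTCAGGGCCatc
H4c1: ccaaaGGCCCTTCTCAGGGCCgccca
H4c2: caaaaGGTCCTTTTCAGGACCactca
H4c11: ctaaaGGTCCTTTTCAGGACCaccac
H3c4: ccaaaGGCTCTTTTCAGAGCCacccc
H3c1: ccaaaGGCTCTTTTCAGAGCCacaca
H3c6: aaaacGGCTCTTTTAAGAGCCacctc
H3c7: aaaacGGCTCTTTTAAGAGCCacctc

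All 9 genes had 1 exon and 1 annotated transcript, and lay on chromosome 13 within 2027.3 kb. H4c11 and Hist1h4m were at one end, 76.68 kb apart. H4c8, H3c7, H3c6 and H3c4 stood together 1795.99 to 1840.7 kb from H4c11, and H4c2, H4c1 and H3c1 together at 2021.95 to 2026.79 kb. H4c8 occupied chr13:23531050-23531519 and H3c4 chr13:23575763-23577011, both on the plus strand. The coding sequences of the 5 H4 genes were 94.2% to 96.8% identical over 312 bases and encoded the same 103 residues. Those of the 4 H3 genes were 96.8% to 98.8% identical over 411 bases, and H3c1 differed from each of the other H3 members by 1 of 136 residues. Between 21.9% (H4c11) and 89.0% (Hist1h4m) of the 75-base words of a member also occurred in another gene, so the division of reads among copies is uncertain. H4c2 also overlaps a gene on the opposite strand, 4930558J22Rik, and whether the authors counted by strand is not given in the sources used here.

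RefSeq promoters (GRCm38.p6) were matched for 7 of the 9 genes, all but H3c1 and H3c7. The letters TATAA, searched on both strands in 300 bases around the start, were in 6 of the 7 and in 24.9% of 32851 promoters. Their places differed, and only Hist1h4m (32) and H3c4 (31) had a match beginning 31 or 32 bases before the start. In H4c8 and H4c1 the only match lay after the start, and in H4c11 it began 2 bases before it. The matches of H4c2 began 140 to 158 bases before the start or lay after it. The letters CCAAT were in 3 of the 7 (H3c6, H3c4 and H4c1) and in 37.4% of all promoters. The 250 bases before the start of Hist1h4m and H3c4 are shown, since Slc6a4-/- sample 3 held 90.5% of the WT mean for Hist1h4m and 56.1% for H3c4, with CCAAT and TATAA on either strand in capitals, overlapping copies merged. A match describes the letters and is not evidence of a bound factor.
Hist1h4m, chr13:21811496-21811745 (plus strand): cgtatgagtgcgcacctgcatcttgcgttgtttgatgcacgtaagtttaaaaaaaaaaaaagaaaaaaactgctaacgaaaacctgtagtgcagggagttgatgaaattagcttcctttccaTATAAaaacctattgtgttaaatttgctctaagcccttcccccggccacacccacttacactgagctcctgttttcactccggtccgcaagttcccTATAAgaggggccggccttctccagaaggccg
H3c4, chr13:23575513-23575762 (plus strand): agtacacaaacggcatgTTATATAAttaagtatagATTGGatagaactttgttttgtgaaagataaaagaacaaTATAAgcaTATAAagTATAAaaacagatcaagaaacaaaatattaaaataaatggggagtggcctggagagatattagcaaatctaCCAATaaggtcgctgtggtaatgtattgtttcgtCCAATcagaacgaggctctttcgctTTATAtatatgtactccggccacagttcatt

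The estimated depth of the 6 libraries was 75.2 to 93.9 M reads, and counts were divided by depth relative to the mean to give the scaled reads used here. Slc6a4 itself had 1516, 1397 and 1548 reads in the WT samples and 0, 0 and 3 in the Slc6a4-/- samples, which fits the labels. The table does not list the rod markers that were looked for, so the retinal identity of the samples was checked only on Opn1mw and Pde6c of cones and Nefl of ganglion cells, each at 2234 scaled reads or more in every sample. Slc6a4-/- sample 3 (mutant sample 3) stood apart from the other mutant samples for most members, and member results are given with and without it. It also differed outside the histone genes, as at Fam177a, which had 869, 1081 and 836 reads in the WT samples and 0, 0 and 447 in the Slc6a4-/- samples. In bulk tissue, fewer cells of a type and less RNA per cell cannot be told apart.

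H4c8 was the most abundant member and had 2676, 2879 and 2169 scaled reads in the WT samples against 1002, 1204 and 2385 in the Slc6a4-/- samples. Mutant samples 1 and 2 lay below every WT sample, while sample 3 was inside the WT range. The log2 difference (Slc6a4-/- minus WT, log2 of scaled reads plus 1) was -0.85 ± 0.32 (SE, n = 3 per genotype), and it was -1.22 without mutant sample 3. Hist1h4m had 766, 1046 and 853 scaled reads in WT and 424, 347 and 804 in Slc6a4-/- samples. It showed the same arrangement, with a log2 difference of -0.84 ± 0.31 (SE, n = 3), or -1.20 without mutant sample 3.

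H4c11 had 303, 378 and 278 scaled reads in WT and 115, 164 and 292 in Slc6a4-/- samples, a log2 difference of -0.84 ± 0.34 (SE, n = 3). The H4c11 difference was -1.20 without mutant sample 3 and -0.53 without mutant sample 1. H4c1 had 652, 559 and 565 in WT and 314, 375 and 560 in Slc6a4-/- samples, a log2 difference of -0.54 ± 0.22, or -0.78 without mutant sample 3. In both genes mutant sample 3 again reached the WT range. H4c2 had 306, 323 and 285 scaled reads in WT and 153, 169 and 262 in Slc6a4-/- samples, a log2 difference of -0.68 ± 0.22, or -0.92 without mutant sample 3. H4c2 was the H4 member whose groups did not overlap, although its mutant sample 3 was also the nearest to WT.

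Among the H3 genes, H3c6 had 710, 813 and 673 scaled reads in WT and 405, 478 and 640 in Slc6a4-/- samples, a log2 difference of -0.55 ± 0.19 (SE, n = 3), or -0.73 without mutant sample 3. H3c7 had 458, 539 and 437 in WT and 276, 341 and 416 in Slc6a4-/- samples, a log2 difference of -0.49 ± 0.18, or -0.63 without mutant sample 3. H3c1 had 257, 277 and 247 in WT and 120, 193 and 217 in Slc6a4-/- samples, a log2 difference of -0.60 ± 0.24. The H3c1 difference was -0.77 without mutant sample 3 and -0.34 without mutant sample 1. In these 3 genes every mutant sample was below every WT sample, and sample 3 was the highest of the mutants. H3c4 had 141, 110 and 104 scaled reads in WT and 69.9, 66.0 and 66.3 in Slc6a4-/- samples. It was the member in which mutant sample 3 was as low as the others, and its log2 difference, -0.79 ± 0.20, was -0.78 without that sample.

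**Figure D1:**
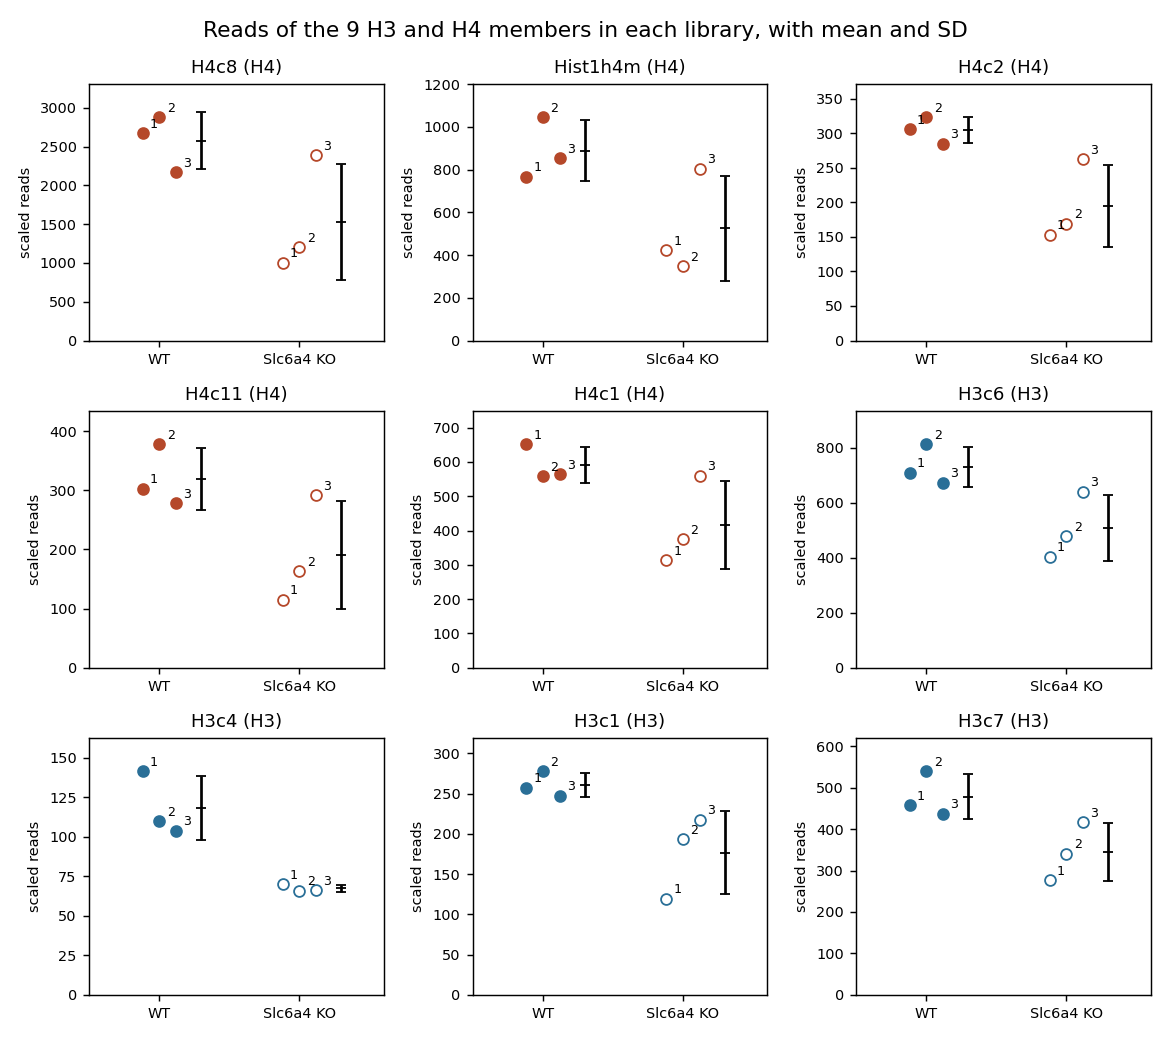
Scaled reads (y axis, from 0) of each member in the 3 WT (filled) and 3 Slc6a4 KO (open) libraries, numbered by replicate, with the mean and SD of each genotype in black. Mutant library 3 is near or inside the WT points in the H4 panels and in H3c6, H3c1 and H3c7, and is at 66.3 beside 69.9 and 66.0 in H3c4.

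Of the 9 members, 5 had all Slc6a4-/- values below all WT values, where 24.1% of the 701 table genes did. Among the 304 table genes that were lower in Slc6a4-/-, as all members were, 169 did. Since both the table and the members were selected on this contrast, nothing is read from the difference between these shares. The 5 were the 4 H3 members and 1 of the 5 H4 members. Without mutant sample 3, all 9 members had groups that did not overlap. With libraries scaled by the median ratio over the table in place of the estimated depth, 8 did, including 4 of the 5 H4 members. The contrast between H3 and H4 in this count therefore depended on the scaling. The share of table genes was not computed for either setting, and leaving out a sample makes separation easier for any gene. The counts of 9 and 8 are therefore not read as a trait of the members. Of the 304 table genes lower in Slc6a4-/-, mutant sample 1 was below every WT sample in 290 and mutant sample 2 in 237. Mutant sample 3 was below every WT sample in 226 of the 304 and in 5 of the 9 members.

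The median log2 difference was -0.84 for the H4 members (range -0.85 to -0.54) and -0.58 for the H3 members (range -0.79 to -0.49). It was 0.30 for all table genes and -0.33 for the 304 table genes lower in Slc6a4-/-. The ranges of the families overlapped. Leaving out mutant sample 1 brought the H4 median to -0.53 and the H3 median to -0.37, and leaving out mutant sample 3 brought them to -1.20 and -0.75. Within the Slc6a4-/- group the SD of log2 scaled reads was 0.41 to 0.67 for H4 members and 0.046 to 0.45 for H3 members, while within WT it was 0.091 to 0.23 and 0.084 to 0.24. The mutant samples therefore differed more among themselves than the WT samples did for 8 of the 9 members, H3c4 being the exception. Over the 304 table genes lower in Slc6a4-/- the median SD was also larger in the mutant group, at 0.187 against 0.106 in WT.

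Relative to the WT mean, mutant sample 1 held a median of 47.7% for H4 members and 56.5% for H3 members. Sample 2 held 51.2% and 68.3%, and sample 3 held 91.4% and 85.2%. By these medians sample 3 was nearer WT than the others in both families, though not in H3c4 (59.1%, 55.8% and 56.1% in samples 1 to 3). The 304 table genes lower in Slc6a4-/- had the same order, with medians of 73.6%, 80.6% and 86.6%. Sample 3 was the highest of the mutants in 155 of these 304 and in 8 of the 9 members. The order of the samples was thus not particular to the members.

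**Figure D2:**
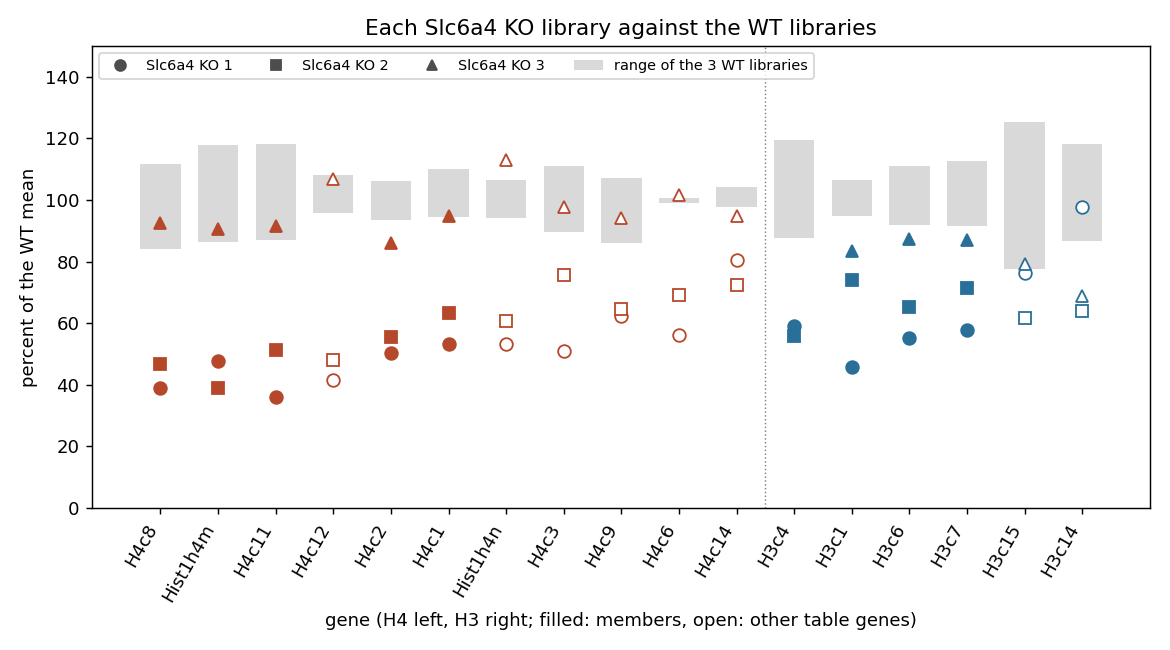
Reads in each Slc6a4 KO library as a percent of the WT mean (y axis) for the 11 H4 and 6 H3 genes of the table (x axis), with members filled, other genes open and the range of the 3 WT libraries in grey. Triangles, mutant library 3, lie between 86.1% and 94.7% for the H4 members, above the circles and squares of libraries 1 and 2.

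The H4 share of all reads counted for the 9 members does not depend on library scaling. In WT sample 1 it was 4258 of 5677 reads, and in WT samples 2 and 3 it was 74.9% and 74.0% (mean of the 3, 74.6% ± 0.57, SD, n = 3). It was 69.8%, 67.7% and 76.3% in the Slc6a4-/- samples (71.2% ± 4.5, SD, n = 3). The exact 95% binomial interval was 68.2% to 71.3% in mutant sample 1, 66.1% to 69.2% in sample 2 and 75.1% to 77.4% in sample 3, and these intervals cover counting error only. Mutant samples 1 and 2 were below all WT samples and sample 3 was above them, so the genotypes overlapped. The difference in mean share, Slc6a4-/- minus WT, was -3.37 percentage points, and it was -5.88 without mutant sample 3 and -1.60 without mutant sample 2. H4c8 alone gave 49.9% to 56.9% of the H4 reads.

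**Figure D3:**
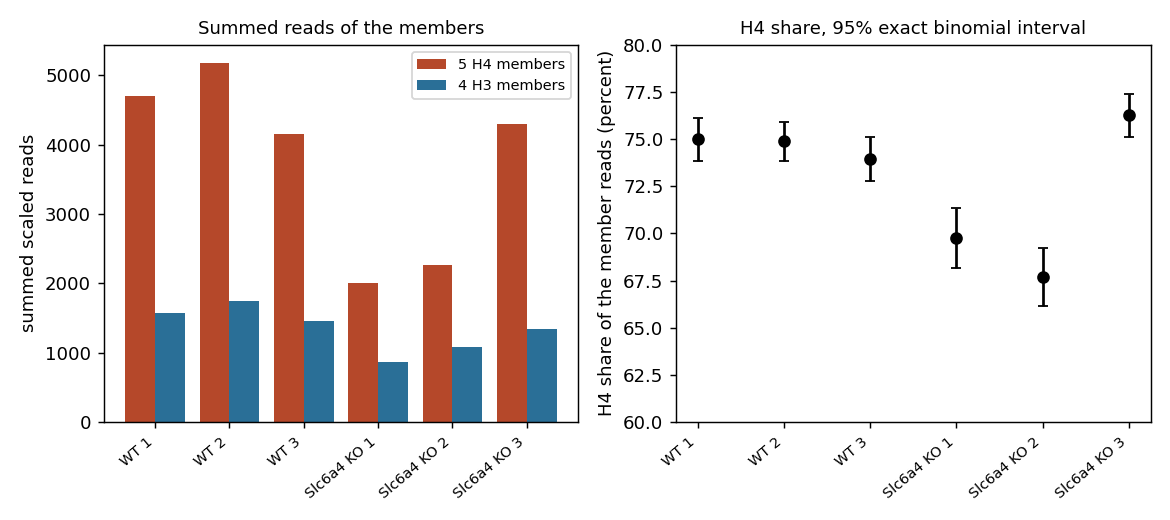
Left, summed scaled reads (y axis, from 0) of the 5 H4 and 4 H3 members in each library. Right, the H4 share of the member reads in percent (axis from 60 to 80) with its 95% interval, at 69.8% and 67.7% in mutant libraries 1 and 2 and 74.0% to 76.3% in the rest.

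Levels were compared between genes per kb of annotated exon. In WT samples H4c8 had 5478 scaled reads per kb, Hist1h4m 2210 and H4c1 1098. H3c6 (876) and H4c2 (768) followed and did not separate beyond their ranges, nor did H3c1 (488) from H4c11 (413) or H4c11 from H3c7 (379). H3c4 was lowest at 94.8. The annotated exon of H3c4 is 1249 bases and its RefSeq transcript 504, and with RefSeq lengths it was still the lowest, at 235 per kb. RefSeq lengths changed the order above it, since H4c11 then had 755 per kb, above H4c2 (677), H3c7 (530) and H3c1 (519).

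Neighbours in the cluster were compared in their differences. H4c8 and H3c7, separated by 12.5 kb, had log2 differences of -0.85 ± 0.32 and -0.49 ± 0.18 (SE). Both genes were measured in the same samples, so these separate SEs cannot decide whether their differences differ. H4c1 and H3c1, which are separated by 0.623 kb, had -0.54 and -0.60.

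**Figure D4:**
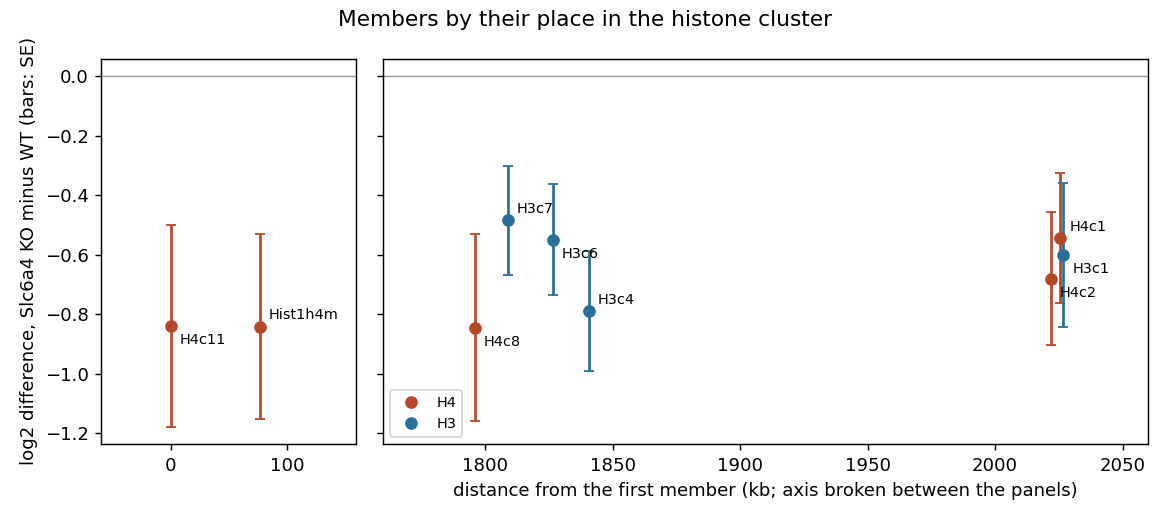
Log2 difference of each member, Slc6a4 KO minus WT with its SE (y axis), against its distance in kb from the first member (x axis, broken between the panels). All 9 are below 0, from -0.85 to -0.49, in each of the 3 groups of neighbouring genes.

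The table holds 8 other clustered genes of these families, H4c3, H4c9, H4c12, H4c6, Hist1h4n, H4c14, H3c15 and H3c14, and other H3 and H4 genes were not analysed here. All 8 were lower in Slc6a4-/-, with log2 differences from -0.74 (H4c12) to -0.28 (H4c14). In table order H3c7 (row 134) is the last member and H4c3 (row 163) the first of these 8 genes after it. The log2 differences of H3c7 and H4c3 were -0.49 and -0.47. In the 6 H4 genes mutant sample 3 was at 94.3% to 113% of the WT mean. H3c14 was arranged otherwise, with mutant sample 1 at 97.6% of the WT mean and sample 3 at 68.9%. The table also holds 10 H1, H2A and H2B genes. Of these, 9 were lower in Slc6a4-/-, and mutant sample 3 was the highest of the mutants in all 10.

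Outside the histone families, 5 genes had profiles over the 6 samples nearest to the mean profile of the members, by root mean square difference of centred log2 scaled reads. They were Jund, a subunit of the AP-1 transcription factor (0.11), Zfp579, a zinc finger protein (0.13), Ahnak2 (0.14), Ccnb1ip1 (0.14) and Dohh, which hydroxylates the translation factor eIF5A (0.16). The median over table genes outside the histone families was 0.61, and the members themselves ranged from 0.03 (H4c2) to 0.29 (H3c4). Jund had 924, 911 and 783 scaled reads in WT and 406, 590 and 768 in Slc6a4-/- samples.

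Genes that act with replication-dependent histones were looked for in 6 lists of 109 distinct gene symbols, and 4 were in the table. A gene is in the table only if it passed the authors' p-value, and the share of all genes that passed was not computed here. The count of 4 is therefore not read as a result about these lists. None of the 19 genes for histone mRNA expression and processing, the 15 H3-H4 chaperones and the 26 DNA replication genes were among its rows. Nor were the 16 symbols of replacement and variant histones, some of which are older and newer names of the same gene. Those found were 2 of 23 mitosis and proliferation genes and 2 of 11 cell cycle inhibitors and p53 targets. They were Top2a, which untangles replicated DNA, Bub3 of the spindle checkpoint, and the cell cycle inhibitors Cdkn1a and Cdkn2c. By limma with Benjamini-Hochberg adjustment over the table, which called 1.28% of its 701 genes, none of the 4 was called (adjusted p = 0.105 each). All 4 had an unadjusted limma p under 0.05, as did 45.8% of all table genes. The table was selected on this same contrast in the same samples, so neither p-value has its usual meaning. Top2a had 13.3, 12.6 and 12.6 scaled reads in WT and 7.08, 2.79 and 5.10 in Slc6a4-/- samples, so its mutant sample 3 stayed below every WT sample. Cdkn1a (log2 difference -1.16 ± 0.30, SE) was likewise low in all 3 mutant samples, at 25.7, 29.7 and 20.4 against 48.2 to 76.4 in WT. Bub3 (0.44 ± 0.11) and Cdkn2c (0.41 ± 0.14) had higher values in every mutant sample than in any WT sample.

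Of 60 marker genes of other retinal and neighbouring cell types, 20 were in the table. The lists were chosen with earlier results of these data known, so this count is not read as a result. None of the 20 was called by limma, and 9 had an unadjusted p under 0.05, a share like the 45.8% of all table genes. These p-values too come from genes selected on the same contrast. The summed level of 4 of 8 pigment cell markers was 635 to 1883 scaled reads in WT and 1596 to 3252 in Slc6a4-/- samples, lowest of the mutants in sample 3. That of 3 of 10 microglia and macrophage markers was 90.2 to 233 in WT and 231 to 336 in Slc6a4-/- samples. Most of that sum was Lyz2 (309, 220 and 176 in mutant samples 1 to 3), while Aif1 (18.6, 29.7 and 44.9) and Ccr2 (8.85, 4.65 and 10.2) were highest of the mutants in sample 3. That of 5 of 7 gland secretion markers was 77.3 to 175 in WT and 33.7 to 54.9 in Slc6a4-/- samples, and Col1a1, the 1 of 5 fibroblast markers present, was at 117 to 317 and 65.1 to 108. The 3 of 6 cone markers summed to 12796 to 22870 in WT and 10655 to 12965 in Slc6a4-/- samples. These cone genes differed in direction, with log2 differences of -1.13 for Opn1sw, -0.20 for Pde6c and 0.39 for Opn1mw. The 2 of 5 erythroid markers summed to 475 to 682 and 563 to 1117. Gfap (1 of 6 glial markers) was at 1567 to 2160 and 1256 to 1551, and Nefl (1 of 7 ganglion cell markers) at 10833 to 12986 and 9035 to 11744. The table listed 0 of 6 rod markers. Ccr2 was at 0 in 1 WT sample and Bpifb9a in 1 mutant sample. The part of these cells in the histone values was not tested.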

How the data were processed

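Total RNA of 6 samples, 3 WT and 3 Slc6a4-/-, was sequenced by the authors after reduction of ribosomal RNA. Reads were aligned to GRCm38 by the authors with CLC Genomics Grid Workbench, which also gave the count of each gene. The deposited table gives raw counts per gene and a mean RPKM, made by the authors, of the genotype with the higher mean. Its columns of fold change, p-value, FDR, Bonferroni value and group means were not used, and 0 columns of per-sample counts were left out. The counts are written with a comma as digit separator and were read after removing them. The unit check could not read them as counts, so no count model was run.

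Library totals, 75.2 to 93.9 M reads, were estimated from the deposited mean RPKM, the counts and GENCODE M21 exon lengths. They were recovered within 0.558% on simulated data that took these totals as true and used the same RPKM formula. That simulation does not measure a misfit of the formula to the real data. In the real data 65 of 111 genes used for WT and 69 of 213 used for Slc6a4-/- lay within the tolerance of the fit. Scaled reads are counts divided by the total relative to its mean. limma 3.58.1 (R 4.3.3, trend) was fitted to log2(scaled reads + 1) of all 701 genes, with Benjamini-Hochberg adjustment and a threshold of 0.05. Member differences carry the SE of that fit and no test. The members and lists were chosen with earlier results of these data known. Named genes are all members, the other clustered H3 and H4 genes, the 5 nearest profiles and every pathway gene in the table. Pools within a genotype are the replicates. Alternatives covered scaling, pseudocount, a filter on low counts, the trend, a replicate block and each sample left out. Python 3.11.15, numpy 2.4.6 and pandas 2.3.3 were used.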

Additional observations from a re-analysis of the deposited data

How the results depend on the processing

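All 9 member differences stayed below 0 under the 3 planned changes of scaling and pseudocount and with each sample left out (-1.22 to -0.34 for the latter). Median ratio scaling raised the members without overlap from 5 to 8, and counting all 17 clustered H3 and H4 genes, chosen after seeing the data, gave 6. With each sample left out that count was 5 to 9 and the H3 median -0.75 to -0.37. The H4 median was then -1.20 to -0.53 and the difference in H4 share -5.88 to -1.60 points. The share of table genes without overlap was computed for the main setting only. The table median log2 difference was 0.30, 0.14 by median ratio and 0.47 without scaling. Genes called by limma numbered 9, 160 without scaling, 43 without the trend and 4 to 171 with each sample left out (171 without the first WT sample, 16 without mutant sample 3). Listed genes called numbered 0, 3 without scaling, 1 without the trend and 0 to 9 with each sample left out. A replicate block gave 15 table genes and 1 listed gene. Deviations of same-numbered samples correlated at 0.25, -0.16 and 0.08, and those of other WT and mutant samples at -0.24 to 0.14. With so few samples these values cannot decide whether the numbers pair the samples. The table holds selected genes only, and 3 pools per genotype limit every difference.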
